A study of Sinibotia superciliaris with 2 samples.

Results

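Melanosomes are the pigment organelles of melanophores, the black pigment cells of fish skin. They are lysosome-related organelles: cargo is sorted to them from endosomes by coat complexes and Rab GTPases, proton pumps and phosphoinositide kinases shape their lumen and membranes, and motors then carry the finished granules along microtubules and actin. The 8 genes described here belong to that machinery: RAB32, RAB27A, MYO5A, AP3B1, AP3D1, ATP6AP1, ATP6AP2 and PIKFYVE. They were chosen by name, as every unigene whose best Swiss-Prot match was RAB32, RB27A (RAB27A), MYO5A, AP3B1, AP3D1, VAS1 (ATP6AP1), RENR (ATP6AP2) or FYV1 (PIKFYVE). This gave 14 unigenes, the assembled transcript units of the files, for 8 of the 4058 genes that the annotation names, and the rule itself uses no measured value.

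The fish were wild adults of Sinibotia superciliaris, a freshwater loach, with no treatment or genetic change given in the labels. Their average weight was 6.25 ± 0.30 g and length 8.75 ± 0.20 cm, with the meaning of ± not stated. Black skin and yellow skin were taken from 6 individuals, and each colour is represented by 1 sequencing library, so nothing below has a replicate check and every ratio compares these libraries only. Whether RNA of the 6 fish was pooled is not stated. Depth was 35386871 reads for black and 38323075 reads for yellow skin, and levels are in RPM, reads scaled to the library total. RPM is not divided by transcript length, so levels are compared between libraries and not between genes. Genes carry the name of their closest protein match, which does not establish orthology. Intervals are 95% counting intervals of an RPM ratio, with read pairs counted once. They cover counting error only, and reads were not counted by molecular identifier. Log2 ratios compare black with yellow as log2(RPM + 1), a scale that understates differences of low genes. A gene counted as measured at a mean of at least 1 RPM and as called at 2-fold or more on that scale.

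None of the 8 genes was 2-fold apart between black and yellow skin. All 8 were measured and none was called, whereas 0.96% of the 3644 measured genes were, 0.823% higher in black and 0.137% higher in yellow skin. Their log2 ratios ran from -0.13 to 0.42 with a median of 0.22, where all measured genes had a median of 0.21 and an SD of 0.30 across genes. Summed over the 8 genes, the level was 480 RPM in black and 427 RPM in yellow skin, 1.13 times as much in black (interval 1.09 to 1.16), while the median RPM ratio of all measured genes was 1.17. The sum weights genes by reads, with RAB27A (149.6 RPM in black) and PIKFYVE (132.8 RPM) the largest, whereas the median weights each gene equally. By contrast, the measured melanophore pigment genes in the same libraries were far apart. TYRP1, which acts in eumelanin synthesis, had 7.34 RPM in black and 0.339 RPM in yellow skin, from 260 and 13 reads.

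Because the median gene was itself higher in the black library, direction was read against that median ratio. On the deposited scale 7 of the 8 genes had more RPM in black skin and ATP6AP2 had more in yellow, where 19.7% of all measured genes also had more in yellow. TMM scaling lowered the median log2 ratio of all measured genes by 0.17; RAB27A and AP3B1 then also lay on the yellow side, leaving 5 of the 8 genes on the black side. Relative to the bulk, the interval of ATP6AP1 and MYO5A lay wholly above the median ratio, that of RAB27A and ATP6AP2 wholly below it, and the other 4 contained it. Over all measured genes 39% had an interval that excluded the median ratio, 19% above it and 20% below it, so 4 of 8 genes is near that background. Against a ratio of 1, the interval lay wholly above for 5 of the 8 genes (49.6% of all measured genes) and wholly below for ATP6AP2 (5.71%).

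**Figure D1:**
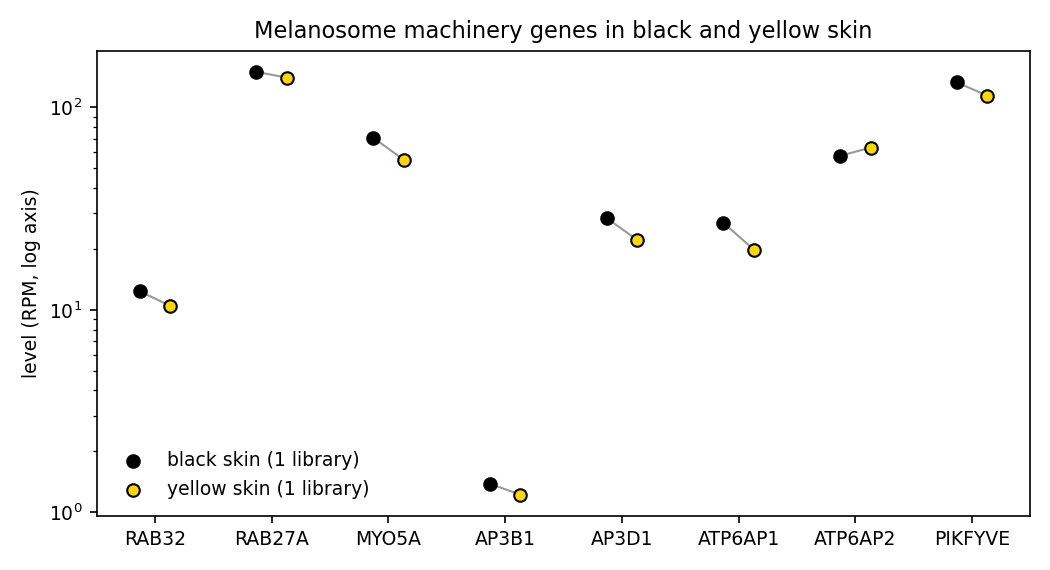
Level in RPM (log axis) of each of the 8 genes in the black (black points) and the yellow library (yellow points), 1 library per colour, joined by a line. ATP6AP2 is the 1 gene whose yellow point is the higher, and the step between colours is small for every gene; heights of different genes are not comparable, since RPM is not divided by length.

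**Figure D2:**
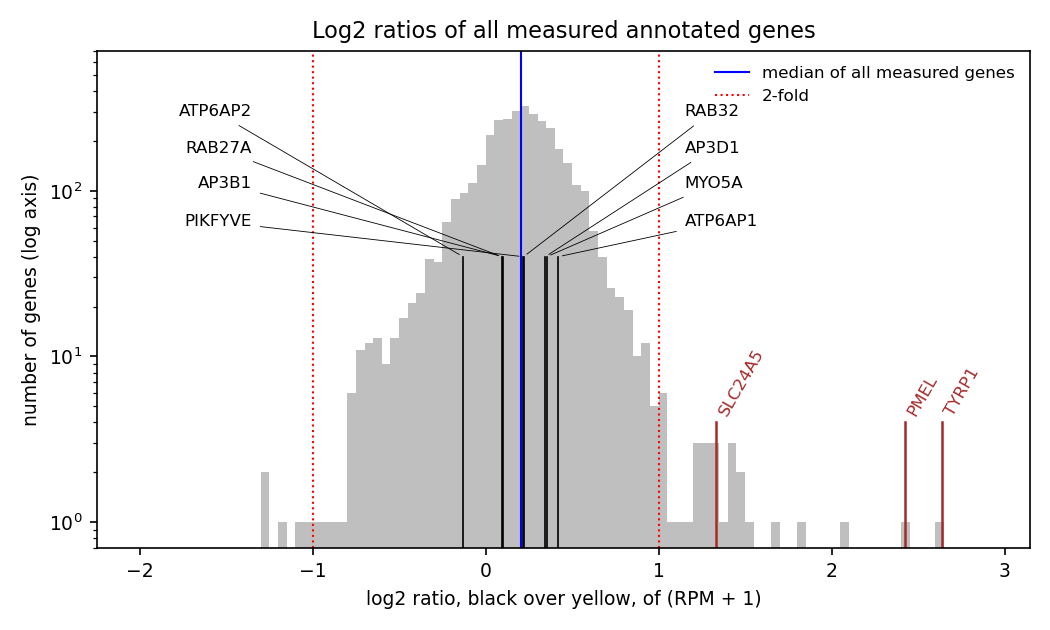
Number of measured genes (log axis) by log2 ratio of black over yellow RPM + 1, in bins of equal width, with the 8 genes as black lines and 3 melanophore pigment genes in brown. The 8 genes fall between -0.13 and 0.42 around the blue median of 0.21, inside the dotted 2-fold lines, and TYRP1, PMEL and SLC24A5 fall outside them.

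Of the Rab GTPases in the set, RAB32 had a ratio near the median ratio of all genes and RAB27A one below it. RAB32 directs melanin enzymes from early endosomes to maturing melanosomes, as known from mouse melanocytes, where it acts together with RAB38. RAB32 was at 12.4 RPM in black and 10.5 RPM in yellow skin, a ratio of 1.18 (interval 0.970 to 1.44). The interval holds both a ratio of 1 and the median ratio of all genes, and 52.1% of the measured genes had a lower log2 ratio. RAB27A, which sits on mature melanosomes and recruits the link to the actin motor, was at 149.6 RPM in black and 140.2 RPM in yellow skin. Its ratio of 1.07 (1.01 to 1.13) rested on 5298 and 5377 reads and lay below the median ratio, while 31.7% of the measured genes had a still lower log2 ratio.

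RAB32 was assembled as 3 unigenes. The most abundant, c105120_g1, is closest in the nucleotide database to zebrafish rab32a and was at 8.30 RPM in black and 7.59 RPM in yellow skin. Its neighbour in the same assembly component, c105120_g2, was at 2.20 and 1.72 RPM. The third, c92060_g1, is closest to an uncharacterised zebrafish protein and was at 1.86 and 1.17 RPM. All 3 were higher in the black library on the deposited scale, though c105120_g1 was not under TMM scaling, with ratios of 1.09 (0.864 to 1.39), 1.28 (0.784 to 2.10) and 1.59 (0.902 to 2.85), and each interval contains 1. Their predicted reading frames of 213, 214 and 225 codons are similar in length, and whether they are gene copies or transcript variants cannot be told apart from the annotation. How reads of shared stretches were divided among them is not known. Without c92060_g1 the RAB32 ratio was 1.13 (0.914 to 1.39).

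RAB38, the close relative of RAB32, differed from it in the same libraries. It had 44 reads in black and 7 in yellow skin, or 1.24 and 0.183 RPM, a ratio of 6.81 (2.19 to 30.5), with a mean below the minimum of 1 RPM. The black over yellow ratio of RAB38 was 5.77 times that of RAB32 (interval 1.67 to 20.4), a comparison that library scaling does not touch. When each gene was represented by its most abundant unigene alone, the ratio of ratios RAB38 over RAB32 was 11.5. That value is less certain, since the RAB38 unigene had 35 reads in black and 3 in yellow skin. Its own ratio was 12.6 (2.56 to 188). The other RAB38 unigene, c78089_g1, had 9 reads in black and 4 in yellow skin. Its ratio was 2.44, and its interval of 0.376 to 26.2 contains 1.

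MYO5A, the class V myosin that carries melanosomes along actin in the periphery of the cell, was at 70.8 RPM in black and 55.2 RPM in yellow skin. Its ratio of 1.28 (1.18 to 1.39) lay above the median ratio of all genes, and 73.1% of the measured genes had a lower log2 ratio. RAB27A and MYO5A are partners in melanosome capture, and the ratio of MYO5A was 1.202 times that of RAB27A (1.09 to 1.33). This comparison does not depend on library scaling. Intervals of ATP6AP1, AP3D1 and PIKFYVE over RAB27A also excluded 1, so the difference is not particular to this pair.

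The reads of MYO5A came from 5 unigenes that did not all lean the same way. In c111138, 3 unigenes carry a match to the myosin motor domain. Of these c111138_g6 was at 14.6 RPM in black and 11.8 RPM in yellow skin, c111138_g4 at 5.25 and 3.57, and c111138_g3 at 2.94 and 1.51. All 3 were higher in the black library, with ratios of 1.24 (1.03 to 1.49), 1.47 (1.06 to 2.04) and 1.94 (1.21 to 3.17). The other 2 unigenes, in component c108001, carry a match to the DIL domain of the cargo-binding tail. Here c108001_g7 was at 45.5 RPM in black and 34.6 RPM in yellow skin, and c108001_g8 at 2.49 and 3.76.

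The tail unigenes thus lay on opposite sides. The ratio of c108001_g7 was 1.32 (1.19 to 1.46), whereas c108001_g8 was higher in yellow skin, at 1.51 times the black level (1.02 to 2.25). Set against each other, the ratio of c108001_g7 was 1.99 times that of c108001_g8 (1.33 to 3.002). Both have a predicted frame of 251 codons, BLASTX scores of 475 and 474 against the same chicken myosin-Va entry, and zebrafish myosin-Va isoforms X6 and X10 as closest proteins. The annotation alone does not tell them apart as copies or variants, and how the authors' counting divided shared reads between them is not given in the sources used here. The minor form held 3.51% of the MYO5A reads in black and 6.80% in yellow skin, and without it the MYO5A ratio was 1.33 (1.22 to 1.45). Of the 14 unigenes of the 8 genes, 12 were higher in black and 2 in yellow skin on the deposited scale. The median log2 ratio of all 31795 measured unigenes was itself 0.14, and 5 of the 14 belong to MYO5A and 3 to RAB32. None of the 14 was called, where 1.09% of all measured unigenes were.

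**Figure D3:**
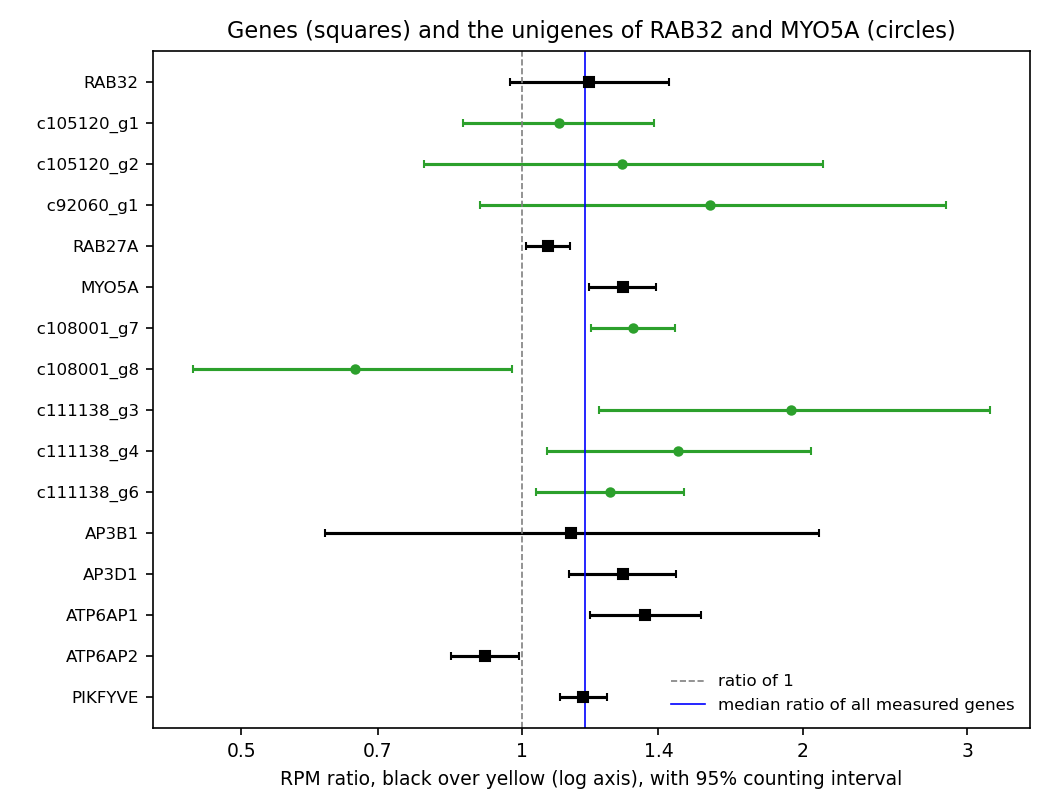
RPM ratio of black over yellow (log axis) with its 95% counting interval, for the 8 genes (squares) and for the single unigenes of RAB32 and MYO5A (circles). The dashed line is a ratio of 1 and the blue line the median of all measured genes at 1.17; c108001_g8 at 0.662 and ATP6AP2 at 0.912 are the points left of the dashed line.

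The AP-3 coat sorts tyrosinase and other cargo from endosomes to melanosomes, and losses of its subunits pale the coat of mice. Its delta subunit AP3D1 was at 28.4 RPM in black and 22.2 RPM in yellow skin, a ratio of 1.28 (1.12 to 1.46) whose interval holds the median ratio of all genes. Its beta subunit AP3B1 was at 1.38 RPM in black and 1.23 RPM in yellow skin. With only 49 and 47 reads its ratio of 1.13 had an interval of 0.615 to 2.08, so a 1.5-fold difference either way was not detectable at this depth. The AP3B1 unigene holds a predicted frame of 173 codons, against 982 codons for AP3D1. Its assembly component also holds the unigene of AP3B2, the other beta subunit, which is best known from neurons of mammals, at 4.604 RPM in black and 3.83 RPM in yellow skin. How shared reads of the beta subunits were divided between these unigenes is not known. The ratios of AP3D1 and AP3B1 could not be told apart, with a ratio of ratios of 1.14 (0.633 to 2.21).

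The accessory subunits of the proton pump lay on opposite sides of the bulk. ATP6AP1 and ATP6AP2 help assemble the vacuolar ATPase, which acidifies endosomes, lysosomes and early melanosomes. ATP6AP1 was at 26.9 RPM in black and 19.8 RPM in yellow skin. Its ratio was 1.35 (1.18 to 1.55), and 81.4% of the measured genes had a lower log2 ratio. ATP6AP2, also known as the renin receptor, was at 57.7 RPM in black and 63.2 RPM in yellow skin. It was the single gene of the 8 with more RPM in yellow skin on the deposited scale, by a factor of 1.10 (1.01 to 1.19), and 10.9% of the measured genes had a lower log2 ratio. The black over yellow ratio of ATP6AP1 was 1.49 times that of ATP6AP2 (1.27 to 1.75), which does not depend on scaling, but the pair is the highest and the lowest of the 8, so its distance from 1 follows in part from that choice. Each was a single unigene with 2 predicted membrane helices, and ATP6AP1 also had a predicted signal peptide.

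PIKFYVE, the kinase that makes the lipid PI(3,5)P2 on endosomes and whose loss or inhibition gives swollen vacuoles in animal cells, was at 132.8 RPM in black and 114.1 RPM in yellow skin. Its ratio of 1.16 (1.10 to 1.23) straddled the median ratio of all genes, and 51.6% of the measured genes had a lower log2 ratio. It was assembled as 1 unigene with a predicted frame of 2071 codons, the longest of the set.

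Ordered by ratio the genes ran ATP6AP1, MYO5A, AP3D1, RAB32, PIKFYVE, AP3B1, RAB27A and ATP6AP2. Of the 7 pairs of neighbours in that order, 1 had an interval of the ratio of ratios that excluded 1, namely RAB27A over ATP6AP2 at 1.17 (1.06 to 1.29). Among all 28 pairs, 11 intervals excluded 1, of which 6 involved ATP6AP2 and 5 RAB27A, with the pair of both counted in each, and the last was ATP6AP1 over PIKFYVE at 1.16 (1.004 to 1.35). These intervals were not adjusted for the number of pairs. The share of such intervals among pairs of all measured genes was not computed, so the count of 11 is not read as particular to these genes.

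Other genes of the same machinery were read beside the 8. Of 181 further Swiss-Prot names in 11 lists, 54 were annotated and 51 measured. None of the 51 was 2-fold apart, where 0.96% of all measured genes were. The median log2 ratio of the 51 was 0.20, close to the 0.21 of all measured genes, and 25 of 51 lay above the latter. Intervals lay wholly above the median ratio for 4 of them and wholly below it for 9, or 13 of 51 against 39% of all measured genes. The lists for BLOC (14 names) and for HOPS and CORVET (10 names), complexes that act beside AP-3 and RAB32, matched no gene name in the annotation used here, so their levels were not analysed here.

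The proton pump itself spread widest. The 10 further measured V-ATPase genes had a median log2 ratio of 0.28, with 6 above the median of all genes. ATP6V1A, the catalytic subunit A (entry VATA), was at 34.3 RPM in black and 18.9 RPM in yellow skin, a ratio of 1.82 (1.595 to 2.08) with both of its unigenes on the black side. Of these c110162_g1 had a ratio of 1.63, and c108287_g1, at 9.38 RPM in black and 3.52 RPM in yellow skin, had 2.66 (1.995 to 3.59) and was called at 2-fold as a single unigene. ATP6V1B2, the subunit B that forms a ring with subunit A (entry VATB2), was at 4.9996 RPM in black and 8.11 RPM in yellow skin, 1.62 times the black level (1.24 to 2.13). The ratio of ATP6V1A was 2.953 times that of ATP6V1B2 (2.20 to 4.04). These were named as the highest and lowest of the list, so an interval that excludes 1 follows in part from that choice. The closest protein of the ATP6V1B2 unigene is a partial bird sequence, so this name is less secure. ATP6V1E1 (entry VATE1), a stalk subunit named after its values were seen, was at 24.01 RPM in black and 16.2 RPM in yellow skin, a ratio of 1.48 (1.27 to 1.72).

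MYO5A was set beside the other vesicle myosins, of which none measured had a higher log2 ratio. The 6 further measured vesicle myosins had a median log2 ratio of 0.0052, 1 of them above the median of all genes, and 3 had an interval wholly below the median ratio. MYO5B, a class V motor of recycling endosomes, was at 58.4 RPM in black and 47.9 RPM in yellow skin. Its ratio was 1.22 (1.11 to 1.33) and could not be told apart from that of MYO5A, which was 1.05 times as high (0.931 to 1.19). MYO10, a motor of filopodia, was at 70.2 RPM in black and 85.8 RPM in yellow skin. Its yellow over black ratio was 1.22 (1.14 to 1.32), and the ratio of MYO5A was 1.57 times that of MYO10 (1.403 to 1.75), which was named as the lowest of its list.

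For the 7 further measured Rab GTPases the log2 ratio had a median of 0.22. RAB9A, which acts in late endosome traffic, was at 10.6 RPM in black and 7.09 RPM in yellow skin, 1.49 times as much in black (1.19 to 1.87). RAB8B, at 1.55 and 1.98 RPM, was 1.28 times as high in yellow skin, and 1 lies within the interval (0.761 to 2.17). The 4 measured Rab regulators and effectors had a median of 0.099, with 1 above the median of all genes and 1 interval wholly below the median ratio. Of these, RAB11FIP2 (entry RFIP2), a link from recycling endosomes to class V myosin, had a ratio of 1.47 (1.07 to 2.02). MYRIP, which links RAB27A to myosins in other tissues, was at 0.989 RPM in black and 1.49 RPM in yellow skin, and its interval of 0.345 to 1.25 for black over yellow includes no difference. Melanophilin (entry MELPH), the effector that joins RAB27A to MYO5A in mouse melanocytes, was on this list. It matched no gene name in the annotation used here, so its level was not analysed.

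Microtubule motors, which carry melanosomes inward and outward in fish melanophores, had 11 measured genes with a median log2 ratio of 0.28, 7 of them above the median of all genes, but no interval lay wholly above the median ratio and 1 lay below it. That 1 was DYNC1H1 (entry DYHC1), the heavy chain of the inward motor cytoplasmic dynein, at 1190.4 RPM in black and 1153 RPM in yellow skin, a ratio of 1.03 (1.01 to 1.05); it is named after its values were seen. The summed ratio of the list was 1.06, mostly from DYNC1H1, which gave 1190.4 of 1493.6 RPM in black skin. KIF3B, a subunit of kinesin-2, was at 3.14 RPM in black and 1.96 RPM in yellow skin, a ratio of 1.603 (1.04 to 2.49). KIF5C, a kinesin-1 heavy chain, was at 0.932 and 1.30 RPM, with an interval of 0.359 to 1.38 for black over yellow. The coat, phosphoinositide and SNARE lists had medians of 0.20, 0.24 and 0.17 over 5, 3 and 4 measured genes, beside 0.21 for all measured genes. Extremes of these lists were taken by log2 ratio. In the coat list they were CLTB (entry CLCB), a clathrin light chain, with a ratio of 1.42 (1.25 to 1.61), and AP1S1, an AP-1 subunit, with 1.01 (0.923 to 1.12). By RPM ratio AP1S2, another AP-1 subunit, was above CLTB, at 1.48 (1.12 to 1.96). The phosphoinositide list had TPCN2 (entry TPC2), an endolysosomal channel, with 1.404 (1.03 to 1.91), and MCOLN1 (entry MCLN1), another such channel, with 1.149 (0.932 to 1.42). In the SNARE list they were VTI1A, with 1.19 (0.972 to 1.45), and STX12, a SNARE of endosomes, with 1.05 (0.956 to 1.1498). Clathrin heavy chain carries the entry name CLH, which the coat list did not hold, so it is outside these medians and counts. Its ratio of 1.61 (1.39 to 1.87) was above that of CLTB. On the deposited scale 44 of the 51 further machinery genes were higher in black skin. Most measured genes leaned that way too, since only 19.7% of them had more RPM in yellow. Under TMM scaling 15 of the 44, among them AP1S1, STX12, MYO5C and DYNC1H1, moved to the yellow side. That scaling shifted the bulk median by -0.17 as well, and how many of all measured genes changed side is not given here.

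**Figure D4:**
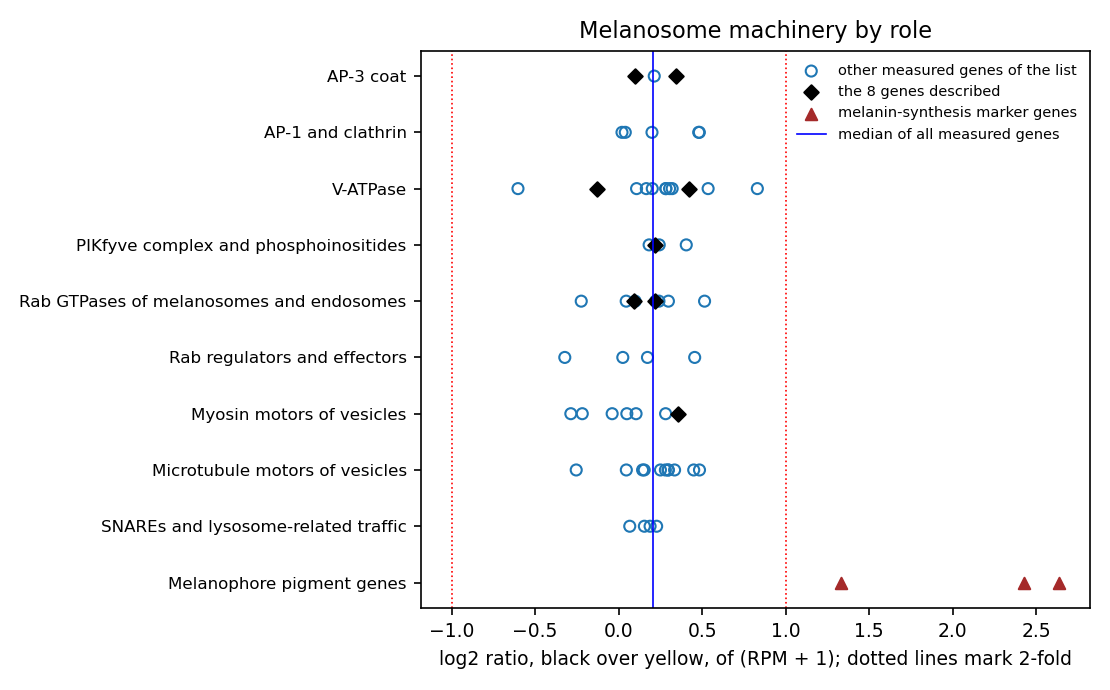
Log2 ratio of black over yellow RPM + 1 for each measured gene of the machinery lists (open circles), the 8 genes described (black diamonds) and 3 melanophore pigment marker genes (brown triangles), 1 row per list. All machinery genes lie inside the dotted 2-fold lines, the V-ATPase row is the widest, from -0.60 to 0.83, and the marker genes start at 1.33.

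Markers of melanophores and of other skin cells were read in the same libraries. Of 10 melanophore pigment genes, 5 were annotated, namely TYRP1, PMEL, SLC24A5 (entry NCKX5), TYR (entry TYRO) and RAB38, with a summed level of 22.8 RPM in black and 2.14 RPM in yellow skin, 10.6 times as much in black (7.71 to 15.1). The ratio of TYRP1 was 16.9 times that of MYO5A (8.12 to 50.9) and that of PMEL 6.97 times (4.41 to 10.98), so those pigment genes differed more between the libraries than MYO5A did. In such bulk tissue fewer cells of a type and less RNA per cell cannot be told apart. Immune markers, with 6 of 10 annotated, summed to 154.3 RPM in black and 94.0 RPM in yellow skin, a ratio of 1.64 (1.55 to 1.74), with CSF1R and ZAP70 the most abundant. CSF1R, at 65.3 and 34.8 RPM, also marks and is required by yellow pigment cells in zebrafish, so it is not specific to immune cells. Of the other immune markers MMP9 was called higher in black skin, at 2.37 and 0.417 RPM, and HA2B had a ratio of 0.926 (0.720 to 1.19). Keratinocyte markers, with 3 of 10 annotated, summed to 922 and 753 RPM, a ratio of 1.22 (1.198 to 1.25), mostly from DSP (entry DESP) and EVPL. Skeletal muscle markers, with 6 of 10 annotated and ALDOA and PGAM2 the most abundant, summed to 3017 and 3391 RPM, 1.12 times as much in yellow skin. The members did not lean 1 way: ALDOA, PGAM2 and ACTN3 were higher in yellow skin, while TITIN had a ratio of 1.18, ACTS 1.303 and ATP2A1 (entry AT2A1) 2.49 (2.17 to 2.86), the last called higher in black skin. No annotated marker of these lists was at 0 reads in either library. These proteins of general vesicle traffic are made by many cell types, and the part of cell composition in the ratios of the 8 genes was not tested.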

How the data were processed

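Per the file headers, each of the 2 libraries came with a normalised signal for every unigene; no unit is named, and the values were read as RPM. Per the submitters' processing notes GRCz11 (zebrafish) was used, in a role not given; the sources used here name no assembler, aligner or counter. Repeats made up 4131 of 128781 lines, always with an identical value, and 124650 unigenes remained. Values were whole multiples of 0.0282 RPM (black) and 0.0261 RPM (yellow), so whole reads were recovered: 100% of values in each library were whole within 0.1 read, the lowest value, below 1 step, being taken as 0 reads (5197 and 6070 unigenes). With 1 library per colour no count test can be run, so none calls a gene.

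The deposited annotation, whose entries are other than measurements, named 4.55% of the unigenes and may be part of a longer table. Reads were summed by Swiss-Prot entry stem of the BLASTX match (BLASTP if empty). Even read numbers were commoner than odd ones at most low values (8897 black unigenes with 2 reads, 6459 with 1, 7299 with 3), so intervals (Clopper-Pearson form, conditional on the summed reads) count each pair once. Ratios of ratios carry exact conditional odds-ratio intervals. A pseudocount of 1, a minimum mean of 1 RPM and a 2-fold rule were used, with no p-value.

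Named genes were the 8 genes with all their unigenes, the measured genes of highest and lowest log2 ratio of each machinery list, every annotated melanophore marker, and the 2 most abundant markers of each other cell type. A further marker list is not reported here. The genes, lists and pairs compared were chosen with earlier results of these data known. Tools were Python 3.11.15, scipy 1.17.1, edgeR 4.0.16 (TMM) and DESeq2 1.42.0 (median of ratios); the steps were tested on simulated data. Alternatives covered scaling, pseudocount, minimum, joining of unigenes, match quality and the call rule.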

Additional observations from a re-analysis of the deposited data

How the results depend on the processing

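None of the 8 genes was called under any alternative tried, and none of their unigenes under those that apply to single unigenes. The median log2 ratio of member genes, the 8 described (0.22), ran from 0.04 with TMM scaling to 0.23 with a pseudocount of 0.1. The number with an interval excluding the median ratio stayed at 4, and was 5 with every read counted singly, a setting chosen after seeing the data. The median log2 ratio of machinery list genes other than the 8 (0.20) was 0.022 with TMM scaling, 0.039 without the 2 most abundant unigenes and 0.022 without the 100 most abundant, and in the last setting 1 of them, RAB38, was called. The bulk median fell by 0.17, 0.15 and 0.17 in these settings, and by 0.13 with median-of-ratios scaling. Without the 100 most abundant unigenes the library totals shrink, so RPM of every remaining unigene rises while the pseudocount stays at 1. Log2 ratios of low genes are then understated less and could move the other way, as log2 ratio RAB38 did, from 0.92 to 1.11. Genes called overall (35, of which 30 higher in black and 5 in yellow) were 86 with a pseudocount of 0.1, 11 with a pseudocount of 5 and 20 at 5 times the minimum. The split was 24 against 9 without the 2 most abundant unigenes and 29 against 13 without the 100 most abundant. With the most abundant unigene per gene the ratio of ratios RAB38 over RAB32 was 11.5, from a RAB38 unigene with 3 reads in yellow skin. No paired analysis was possible because each colour has 1 library. Depth limits AP3B1, with 49 and 47 reads, and the single RAB32 unigenes.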

Other observations

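A wider set, chosen after seeing the data, was read from the deposited annotation: genes carrying the GO term melanosome, a cell-component term that in mammals draws on proteins found in purified melanosomes. Of 38 such genes other than the 8, 34 were measured. None of the 34 was called at 2-fold, where 0.96% of all measured genes were, but the 34 lay higher than the machinery described above. The sets share some genes, namely ATP6V1B2, VPP1, MYO7A and RAB5A among those measured. Their median log2 ratio was 0.38 beside 0.21 for all measured genes, and 25 of 34 lay above that median. Intervals lay wholly above the median ratio for 16 of the 34, where 19% of all measured genes did. They lay wholly below it for 7 of the 34, where 20% of all measured genes did. The 7 below were ATP6V1B2 (entry VATB2), the heat shock protein H90A1, MYO7A, MYH11, RAB5A, PEDF and SATT. Of these, H90A1 had a ratio of 0.840 (0.756 to 0.934) and ATP6V1B2 one of 0.616 (0.469 to 0.805). The related heat shock protein HS90A lay wholly above the median ratio, so related genes of the set lay on both sides. Members above it also included lysosomal proteases and folding enzymes of the endoplasmic reticulum. Cathepsin D (entry CATD) was at 28.3 RPM in black and 16.5 RPM in yellow skin, a ratio of 1.71 (interval 1.49 to 1.98). Cathepsin B (entry CATB) was at 254.8 and 171.6 RPM, a ratio of 1.48 (1.42 to 1.55). The disulfide isomerases PDIA4 and PDIA6 had ratios of 1.63 (1.45 to 1.83) and 1.63 (1.505 to 1.77), and clathrin heavy chain (entry CLH) one of 1.61 (1.39 to 1.87). These proteins serve every secretory or phagocytic cell, and ITGB2 (entry ITB2), an integrin of leukocytes in the same set, had a ratio of 1.51 (1.34 to 1.70). The immune markers had a summed ratio of 1.64, and their part in these values was not tested.

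The term for melanosome organization, transport or localization gave 6 further measured genes with a median log2 ratio of 0.21, the same as the bulk. Of the 6, 3 lay above the bulk median. No interval lay wholly above the median ratio and 1 lay wholly below it, that of MYO7A, with a ratio of 0.972 (0.839 to 1.13). BBS4 had a ratio of 1.03 (0.773 to 1.36). Also among the 6, SHROOM2 (entry SHRM2), which acts in melanosome formation in frog and eye pigment cells, had a ratio of 1.24 (1.10 to 1.41). KIF13A (entry KI13A), a kinesin that works with AP-1 in melanosome cargo transport, had one of 1.204 (1.01 to 1.43).

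The assembly components of the 8 genes also held 26 unigenes without annotation, of which 16 were measured. None of the 16 was called, where 1.09% of all measured unigenes were. The log2 ratios of the 16 ran from -0.21 to 0.64, beside -0.45 to 0.65 for the 14 annotated unigenes. Both ends of the range of the 16 lay in component c111062, that of ATP6AP2. Whether these are pieces of the same transcripts cannot be read from the files used here.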
